A study of Mus musculus with 8 samples.

Results

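Glutathione, antioxidant and metal stress genes were examined in RNA-Seq libraries of mouse kidney tubuloids, which are tubule-like epithelial structures grown in Matrigel from fragments of postnatal kidney. The genes were taken by symbol: the glutathione *S*-transferases of the a, k, m, o, p, t and z classes, the glutathione peroxidases, peroxiredoxins and superoxide dismutases, both metallothioneins *Mt1* and *Mt2*, and the named genes *Nfe2l2*, *Keap1*, *Nqo1*, *Hmox1*, *Gclc*, *Gclm*, *Gss*, *Gsr*, *Txn1*, *Txnrd1*, *Srxn1*, *Cat*, *Fth1* and *Ftl1*. This gave 54 of the 24063 gene symbols listed, and 50 of them were among the 16557 genes with enough counts to be tested. *Gpx5*, *Gpx6*, *Gstm3* and *Gstt4* were not, with at most 11 counts in any culture.

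GDNF (glial-derived neurotrophic factor) signals through the Ret receptor in the growing duct of the embryonic kidney. It was given to 4 cultures as a 24 h pulse in growth factor medium, and 4 control cultures received the same medium without it. All were collected on culture day 7 and came from kidneys of mice aged postnatal day 7 to 10. Every culture, control or GDNF, had the genotype Pkd2fl/fl Pax8rtTA TetOCre mTmG, that is floxed *Pkd2*, a doxycycline-dependent activator under the *Pax8* promoter of renal epithelia, Cre under its control and a membrane colour reporter. No doxycycline is named in the labels of these cultures. The labels do not say whether the cultures came from separate animals, so the p-values measure the spread between cultures, which may be technical.

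Cells keep hydrogen peroxide and lipid peroxides low with peroxiredoxins, which are recharged by thioredoxin, and with glutathione peroxidases, which draw on the tripeptide glutathione. The transcription factor NRF2, encoded by *Nfe2l2*, is held in the cytoplasm and marked for breakdown by KEAP1. When oxidants or electrophiles modify KEAP1, NRF2 accumulates and binds antioxidant response elements (AREs) in genes for glutathione synthesis, thioredoxin reductase, quinone reduction and heme breakdown. Metallothioneins bind zinc, copper and cadmium, and their genes respond to the zinc sensor MTF1 through metal response elements (MREs), while ferritin stores iron. The kidney tubule is a place of high glutathione turnover and of metal uptake.

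Total counts over transcripts were between 72991721 and 97490625 per culture, and the genes examined here took 1.24 to 1.77% of them in the control cultures and 1.0 to 1.28% in the GDNF cultures. Control culture 3 stood apart from the rest: its normalization factor (TMM, a correction for library composition) was 0.790, against 0.963 to 0.982 in the other controls and 1.07 to 1.11 in the GDNF cultures. Genes whose main transcript had at most 2437 bases, the median of all genes listed, took 50.3 to 62.2% of the counts in the controls, with the highest share in culture 3, and 43.8 to 49.6% in the GDNF cultures, with no overlap. Cultures also differed by *Xist* and Y-linked RNA: control cultures 3 and 7 and GDNF cultures 6 and 12 had more *Xist*, and the other two in each group had more Y-linked RNA. Of 7 tubule epithelium markers, all had a mean above 1 CPM (counts scaled by library size and TMM), and their sum was 3215 and 3399 CPM in control cultures 3 and 21 but between 469 and 1431 CPM in the other 6 cultures. *Krt8*, a keratin of simple epithelia and part of that sum, was at 1041 and 1315 CPM in the same controls and between 112 and 285 CPM elsewhere. The 8 stroma markers summed to 3715 CPM in control culture 14 and to between 482 and 2577 CPM in the others. Of 12 proximal tubule markers, 7 were under 1 CPM, among them the transporters *Slc34a1* and *Slc22a6* at or near 0. The transporter *Slc5a2* was at 7.26 to 13.6 CPM in the 8 cultures. *Slc22a8*, at 0.512 to 6.66 CPM, was the 1 marker of this list past an unadjusted p of 0.05, higher after GDNF (edgeR log2 fold change 1.77). The sum of the list was 15.9 to 18.4 CPM in controls and 21.5 to 26.8 CPM after GDNF. Endothelial, macrophage and red blood cell markers summed to at most 61.6, 29.6 and 3.70 CPM in any culture. Since tubuloid cultures hold E-cadherin-negative prestructures as well as tubules, a lower level in bulk RNA may mean fewer cells of a type or less RNA per cell, which cannot be told apart.

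The ARE and the MRE were looked for in the RefSeq promoter windows of build GRCm38.p6, which run from 250 bases before to 50 bases after each annotated start. A window was found for 47 of the 54 genes, and both strands were searched for the ARE as TGACNNNGC and for the MRE as TGCACNC or TGCGCNC. The ARE letters were present in 10 of the 47 genes (21.3%), against 14% of all 27025 genes with a window, and the MRE letters in 15 of 47 (31.9%), against 28.2%. Stretches are printed for both metallothionein genes, where MREs are known to act, and for 3 genes with an ARE match that differed in their level between the groups or between cultures. All are on the + strand, 5′ to 3′. In the first pair of stretches capitals mark the MRE letters, in the others the ARE letters, which read GCNNNGTCA where the match is on the opposite strand.
Mt1, chr8:94179046-94179118: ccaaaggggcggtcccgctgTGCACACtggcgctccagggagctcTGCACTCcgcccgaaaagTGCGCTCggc
Mt2, chr8:94172375-94172647: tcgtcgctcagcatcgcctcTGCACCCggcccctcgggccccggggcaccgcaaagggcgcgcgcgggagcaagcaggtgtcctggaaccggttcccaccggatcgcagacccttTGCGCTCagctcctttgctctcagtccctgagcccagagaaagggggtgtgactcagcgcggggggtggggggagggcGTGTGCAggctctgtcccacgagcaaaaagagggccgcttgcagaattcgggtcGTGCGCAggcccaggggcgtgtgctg
Mt2 (ARE), chr8:94172519-94172567: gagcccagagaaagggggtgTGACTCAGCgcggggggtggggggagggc
Prdx1, chr4:116685446-116685494: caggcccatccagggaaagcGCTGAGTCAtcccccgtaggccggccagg
Txnrd1, chr10:82859094-82859142: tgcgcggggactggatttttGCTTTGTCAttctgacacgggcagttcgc
Gclm, chr3:122245403-122245451: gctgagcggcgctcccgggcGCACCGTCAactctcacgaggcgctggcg
The *Mt1* window held 3 MRE matches close to the start and the *Mt2* window held 4. In *Gclm*, the ARE match shares bases with an MRE match. Such matches are a description of the letters, and most windows that hold them belong to genes outside this set.

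Abundance was compared between genes in the authors' TPM, which is scaled per transcript length, for the main transcript, the one with the most counts. On average over the 8 cultures, *Ftl1*, the light chain of ferritin, was the most abundant at a mean of 3215 TPM, followed by *Prdx1* at 2229 TPM, *Fth1*, the ferritin heavy chain, at 1276 TPM, *Prdx2* at 1174 TPM and *Gpx1* at 1035 TPM. *Txn1*, *Gpx4*, *Prdx5*, *Mt1* and *Gstp1* followed between 849 and 341 TPM. For *Fth1* the main transcript was a RefSeq record of a non-coding RNA, of 1511 bases, and 2 transcripts were listed. Its TPM and rank are thus not those of the coding transcript. The abundant genes were thus those of both ferritin chains, some peroxiredoxins and glutathione peroxidases, thioredoxin, a metallothionein and a glutathione *S*-transferase. By contrast *Sod1* was at 101 TPM, *Cat* at 53.1 TPM and the sensor *Keap1* at 15.2 TPM, and 5 of the 54 genes were under 1 TPM.

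Most of these genes were lower in the GDNF cultures, and none passed the test after adjustment. With edgeR's quasi-likelihood test and Benjamini-Hochberg adjustment over all 16557 genes, 0 of 50 had an adjusted p under 0.05, as for all genes tested (0%), and the smallest adjusted p was 0.167. At an unadjusted p under 0.05, 17 of 50 (34%) were lower after GDNF, against 12.9% of all genes, and 0 of 50 were higher, against 9.25%. The 17 were the 6 peroxiredoxins *Prdx1* to *Prdx6*, *Txn1*, *Gpx1*, *Gpx4*, *Gpx8*, *Mt1*, *Mt2*, *Ftl1*, *Srxn1*, *Gstp1*, *Gsto1* and *Gstm5*, with adjusted p between 0.167 and 0.198. The fold changes were negative for 45 of the 50, against 47.5% of all genes, and their median was -0.48 on the log2 scale, against 0.03. With library size alone, 35 of the 50 were negative, and the median of all genes was then 0.25. DESeq2, the tool named by the authors, called 13 of the 50 lower and 0 higher at an adjusted p of 0.05, against 6.86% of all genes called lower, and limma-voom called 0. Of all 16557 genes, DESeq2 called 1346 in either direction, 1135 of them lower. DESeq2 gave no adjusted p for 12 of the 50, whose control means were 0.562 to 16.04 CPM. The 13 were those 17 without *Prdx6*, *Ftl1*, *Srxn1* and *Gstm5*.

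**Figure D1:**
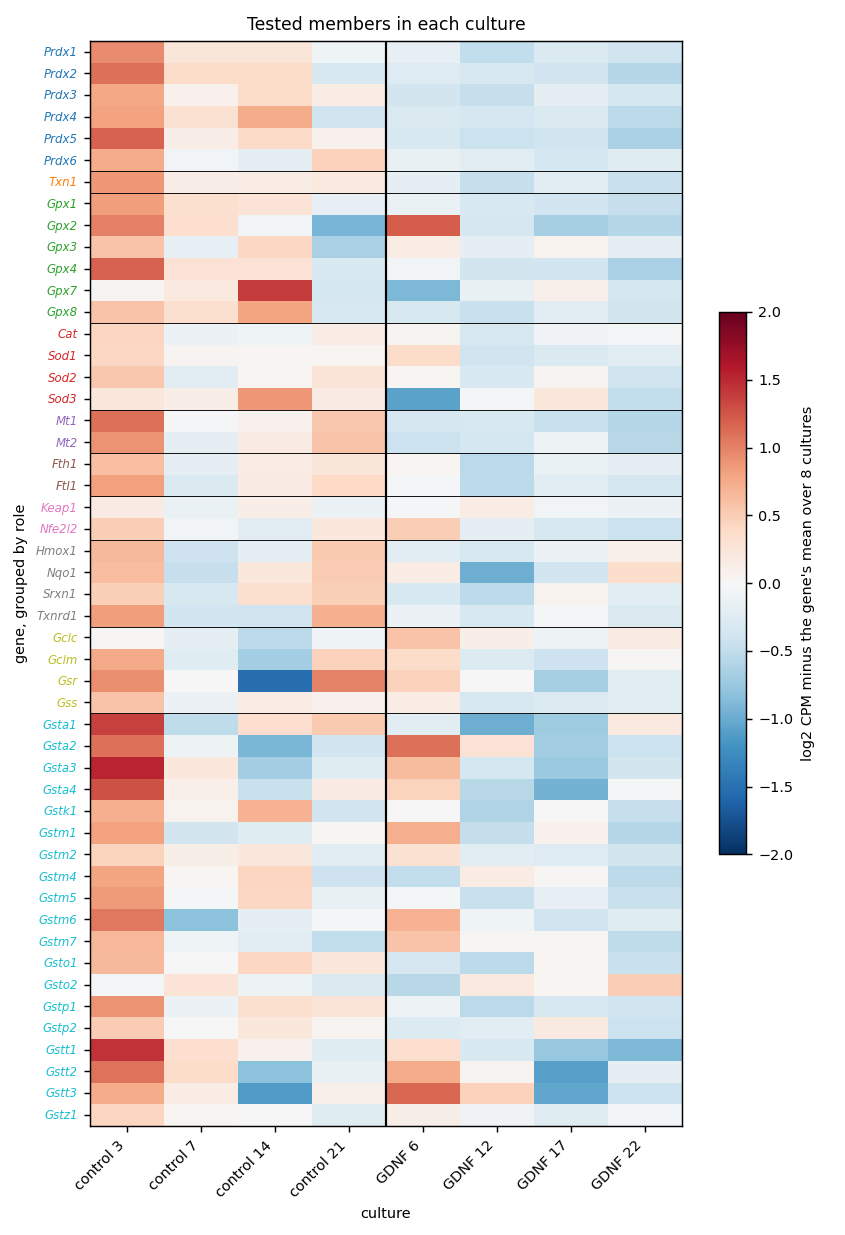
The 50 tested genes (rows, grouped by role from the peroxiredoxins at the top to the glutathione *S*-transferases at the bottom) in 4 control and 4 GDNF cultures (columns). Colour is the log2 CPM minus the mean of the gene over the 8 cultures. Control culture 3, the first column, holds the highest value of 41 of the 50 genes.

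All 6 peroxiredoxins were lower at an unadjusted p under 0.05, with a median log2 fold change of -0.76. *Prdx3* (chromosome 19, 60864066 to 60874538, GRCm38), the mitochondrial peroxiredoxin, was at 145, 89.7, 109 and 94.1 CPM in control cultures 3, 7, 14 and 21, and at 65.4, 61.2, 74.7 and 66.2 CPM in GDNF cultures 6, 12, 17 and 22. The groups did not overlap, and all 4 GDNF cultures lay below the lowest control. The log2 fold change was -0.71 ± 0.17 (standard error), and no other gene of the set had a smaller p (edgeR adjusted p = 0.167). *Prdx5* (chromosome 19, 6906697 to 6910106), found in mitochondria, peroxisomes and cytosol, was at 414, 201, 239 and 193 CPM in the controls and at 148, 136, 139 and 117 CPM after GDNF, in the same order of cultures. Again no GDNF culture reached the lowest control, and the control mean was 1.94 times the GDNF mean (log2 fold change -0.96 ± 0.24, edgeR adjusted p = 0.167). *Prdx1* (chromosome 4, 116685599 to 116700000), the main cytosolic form and the gene with the ARE match printed above, was at 3485, 2132, 2141 and 1701 CPM against 1617, 1282, 1472 and 1362 CPM. It was the third peroxiredoxin without overlap (log2 fold change -0.72 ± 0.23, edgeR adjusted p = 0.167). Of the 50 tested genes, 5 had all GDNF cultures below all controls, against 6.26% of all genes, and 0 had all above, against 6.99%. *Txn1* and *Mt1* completed the 5. The main transcripts of these 5 genes had 542 to 1445 bases, and the share without overlap was not counted for all genes of such length.

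*Prdx2*, abundant in cytosol, was at 1341, 810, 802 and 508 CPM in the controls and between 422 and 521 CPM after GDNF. *Prdx4*, which works in the endoplasmic reticulum, was at 209.8, 149, 201 and 91.8 CPM against a range of 83.4 to 98.6 CPM. In both genes control culture 21 lay within the GDNF range and the other three controls lay above it. *Prdx6*, which is recharged by glutathione rather than thioredoxin, was at 476, 274, 250.1 and 393 CPM against 258, 245, 223 and 242 CPM, and here cultures 3 and 21 were the high controls. The log2 fold changes were -0.85 ± 0.26, -0.80 ± 0.24 and -0.52 ± 0.21, in the order *Prdx2*, *Prdx4* and *Prdx6*. Without control culture 3, the log2 fold change of *Prdx6* was -0.34 and no longer past an unadjusted p of 0.05, and the other five peroxiredoxins remained past it. *Prdx2* shares 154 bases of exon with *Rnaseh2a*, and *Prdx5* shares 360 with *Trmt112*; the kit does not mark strand, so reads from those stretches cannot be assigned to either gene.

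*Txn1* (chromosome 4, 57943373 to 57956411), the cytosolic thioredoxin that recharges peroxiredoxins, was at 928, 558, 564 and 584 CPM in the controls and at 444, 369, 443 and 374 CPM after GDNF. Controls 7, 14 and 21 lay close to each other and still above every GDNF culture. The log2 fold change was -0.69 ± 0.20 (edgeR adjusted p = 0.167), and without control culture 3 it was -0.48 and still past an unadjusted p of 0.05. *Srxn1*, sulfiredoxin, which repairs overoxidized peroxiredoxins, was at 66.6, 38.1, 59.8 and 66.6 CPM against 38.7, 33.1, 49.9 and 41.3 CPM, with overlapping groups (log2 fold change -0.50 ± 0.20, edgeR adjusted p = 0.198). *Srxn1* was not past an unadjusted p of 0.05 with limma-voom (-0.39), with library size alone (-0.28) or when one culture was left out, for GDNF cultures 6, 12 and 22 and control cultures 3, 14 and 21 (-0.51 to -0.42). *Txnrd1*, the reductase of thioredoxin, was at 1457 and 1341 CPM in control cultures 3 and 21 and at 628 and 624 CPM in cultures 7 and 14. After GDNF it was at 755, 653, 801 and 674 CPM, between these pairs of controls. The CPM of *Txnrd1* adds the counts of 4 listed transcripts, and reads shared between them are counted more than once. The thioredoxin system thus differed among its members: *Txn1* separated the groups, whereas *Txnrd1* separated the controls from each other.

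**Figure D2:**
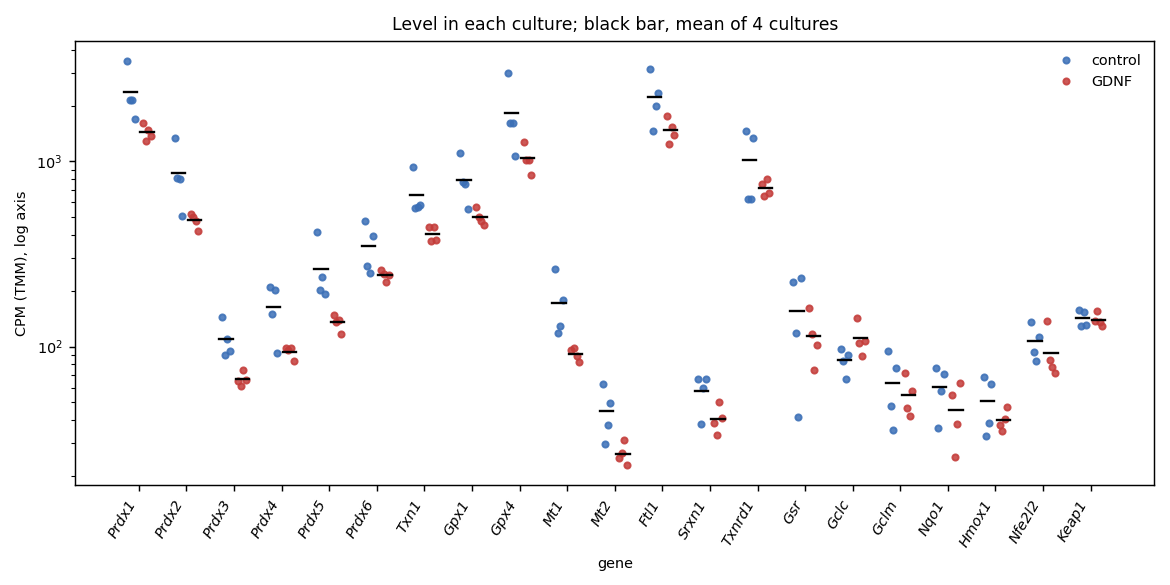
CPM with TMM normalization (log axis) of 21 genes in the 4 control cultures (blue) and the 4 GDNF cultures (red), where each point is a culture and the black bar the mean of 4. The groups do not overlap for *Prdx1*, *Prdx3*, *Prdx5*, *Txn1* and *Mt1*, and the control cultures fall into a high and a low pair for *Txnrd1*. Heights are not comparable between genes, since CPM adds 4 listed transcripts for *Txnrd1* and *Keap1* and 3 for *Gpx4*.

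All 6 tested glutathione peroxidases had negative fold changes, or 4 of 6 when only library size was used for scaling, and 3 were lower at an unadjusted p under 0.05. *Gpx4* (chromosome 10, 80047166 to 80056439), which removes lipid peroxides and guards against ferroptosis, was at 2998, 1610, 1612 and 1070 CPM in the controls and at 1272, 1022, 1018 and 846 CPM after GDNF. GDNF culture 6 lay above the lowest control, and the other three lay below it (log2 fold change -0.81 ± 0.29, edgeR adjusted p = 0.174). *Gpx1*, the abundant cytosolic form, was at 1113, 772, 752 and 550.5 CPM against 568, 501, 477 and 452 CPM (log2 fold change -0.67 ± 0.21, edgeR adjusted p = 0.167). *Gpx8*, a membrane protein of the endoplasmic reticulum, was at 224, 187, 259.6 and 120.2 CPM against a range of 111 to 129.8 CPM (log2 fold change -0.73 ± 0.22, edgeR adjusted p = 0.167). For *Gpx8* and *Gpx7*, which both work in that compartment, the highest culture was control culture 14, where the stroma markers were also highest. *Gpx7* was at 30.2 CPM there and between 6.17 and 13.1 CPM in the other cultures. The part of the stroma in these levels was not tested. *Gpx3*, the secreted form, was at 96.1 to 224 CPM in the controls and 132 to 168 CPM after GDNF, and *Gpx2* had a log2 fold change of -0.11 ± 0.50, or 0.15 with library size alone.

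Superoxide dismutases and catalase had negative fold changes, or 3 of 4 with library size alone or with a length offset, and 0 of 4 were past an unadjusted p of 0.05. *Sod1*, the cytosolic enzyme, was at 50.0, 38.7, 38.3 and 38.2 CPM in the controls and at 47.9, 28.3, 30.4 and 32.4 CPM after GDNF (log2 fold change -0.25 ± 0.19, edgeR adjusted p = 0.455, and 0.04 with an offset for transcript length). *Sod2*, its mitochondrial counterpart, had a log2 fold change of -0.32 ± 0.19 (edgeR adjusted p = 0.334), and *Sod3*, the extracellular form, one of -0.66 ± 0.32 at levels of 1.56 to 5.96 CPM (edgeR adjusted p = 0.258). *Cat*, which breaks down peroxide in peroxisomes, was at 71.9 to 104.5 CPM in the controls and 61.9 to 80.8 CPM after GDNF, and its log2 fold change of -0.20 ± 0.16 became 0.03 when only library size was used for scaling. In all 4 genes the groups overlapped.

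Both metallothioneins were lower after GDNF. *Mt1* (chromosome 8, 94178883 to 94180327) was at 261, 118, 129 and 177 CPM in the controls and at 96.1, 97.9, 89.1 and 82.0 CPM after GDNF. The GDNF cultures lay close together and all below the controls, and the control mean was 1.88 times theirs (log2 fold change -0.91 ± 0.24, edgeR adjusted p = 0.167). *Mt2* (chromosome 8, 94172618 to 94173567), its neighbour, was at 62.7, 29.8, 37.6 and 49.8 CPM against 25.1, 26.4, 31.3 and 22.9 CPM. Control cultures 3 and 21 were the highest in both genes, and for *Mt2* GDNF culture 17 lay above control culture 7 (log2 fold change -0.77 ± 0.23, edgeR adjusted p = 0.167). *Mtf1*, the zinc sensor that acts on MREs, was also lower (56.1 ± 9.44 CPM against 43.1 ± 3.35 CPM, SD, n = 4 each, edgeR log2 fold change -0.38 ± 0.15, adjusted p = 0.194). *Slc30a1*, a zinc exporter and another target of MTF1, had a log2 fold change of -0.27 ± 0.24 and overlapped between the groups.

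Of the ferritin chains, 1 of 2 was lower at an unadjusted p under 0.05. *Ftl1* (chromosome 7, 45457944 to 45459886) was at 3134, 1449, 1993 and 2337 CPM in the controls and at 1750.0, 1235, 1534 and 1383 CPM after GDNF (log2 fold change -0.60 ± 0.24, edgeR adjusted p = 0.194). *Fth1* was at 3332, 1947, 2449 and 2613 CPM against 2263, 1514, 2013 and 1938 CPM (log2 fold change -0.42 ± 0.20, edgeR adjusted p = 0.252). Groups overlapped for both, with culture 7 the lowest control, and *Ftl1*, at a log2 fold change of -0.39 without control culture 3, was then not past an unadjusted p of 0.05. Both have processed copies elsewhere in the genome, and how reads that fit such copies were counted is not given in the sources used here.

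The sensor pair did not separate the groups. *Nfe2l2* was at 136, 93.6, 83.7 and 112 CPM in the controls and at 136, 84.8, 77.5 and 71.9 CPM after GDNF (log2 fold change -0.20 ± 0.23, edgeR adjusted p = 0.632), and *Keap1* had a mean of 143 ± 15.5 CPM against 139 ± 11.0 CPM (SD, n = 4 each). The signs of both were positive under library size alone, at 0.03 for *Nfe2l2* and 0.19 for *Keap1*. *Nqo1*, a quinone reductase, was at 76.2, 36.1, 57.3 and 70.7 CPM against 55.0, 25.2, 38.3 and 63.2 CPM, and *Hmox1*, which opens heme, at 68.8, 33.0, 38.8 and 63.0 CPM against 37.8, 35.2, 40.7 and 47.1 CPM. The log2 fold changes were -0.40 ± 0.31 (edgeR adjusted p = 0.451) for *Nqo1* and -0.34 ± 0.24 (adjusted p = 0.415) for *Hmox1*. As with *Txnrd1*, control cultures 3 and 21 held the highest values of both, and control culture 7 was the lowest control of both. Control cultures 3 and 21 were also highest for *Krt8*, for the keratin *Krt18* (1074 and 1216 CPM) and for the summed epithelial markers, a sum that includes both keratins. Of the same epithelial list, *Pax8* and *Pax2* were instead highest in GDNF culture 6, with *Pax8* at 150.8 CPM against 136.3 and 139.6 CPM in those controls. *Cdh1* and *Cldn7* were highest in control cultures 3 and 21. *Epcam* was highest in control culture 3. In control culture 21 *Epcam* was at 208 CPM, below GDNF culture 6 at 220 CPM and control culture 7 at 218 CPM. Among 4 tubule injury markers, *Havcr1* and *Krt20* were highest in control cultures 3 and 21 too, while *Lcn2* and *Vcam1* were highest in GDNF culture 6. The part of these markers in the levels of *Txnrd1*, *Nqo1* and *Hmox1* was not tested.

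In glutathione synthesis and recycling, 0 of 4 genes were past an unadjusted p of 0.05, and 1 had a positive fold change. *Gclc* (chromosome 9, 77754535 to 77794489), the catalytic subunit of the rate-limiting enzyme, was at 97.4, 83.4, 66.6 and 89.5 CPM in the controls and at 142, 105, 88.5 and 107 CPM after GDNF. GDNF culture 17 lay within the control range, and the other three lay above the highest control (log2 fold change 0.39 ± 0.18, edgeR adjusted p = 0.232). It was the largest positive value among the 50 genes, and its unadjusted p was under 0.05 under other settings, such as without control culture 3 (log2 fold change 0.47) and with library size alone (0.62), and over 0.05 in others, with a log2 fold change of 0.25 without GDNF culture 6, 0.30 without control culture 14 and 0.31 with the length offset. *Gclm*, the modifier subunit of the same enzyme and a gene with an ARE match, was at 94.5, 47.6, 35.2 and 77.0 CPM against 72.3, 46.5, 42.3 and 57.2 CPM, so the subunits differed in sign (log2 fold change -0.22 ± 0.30, edgeR adjusted p = 0.691), although *Gclm* became positive at 0.03 without control culture 3 or with library size alone. *Gsr*, which returns oxidized glutathione to its reduced form, was at 224, 118, 41.4 and 235 CPM in the controls and at 161, 118, 74.5 and 101 CPM after GDNF. Its control values spanned more than the difference between the group means of 155 and 114 CPM, with cultures 3 and 21 high and culture 14 lowest. *Gss*, the second enzyme of synthesis, had a log2 fold change of -0.35 ± 0.18 (edgeR adjusted p = 0.275) and overlaps exons of 3 other genes.

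**Figure D3:**
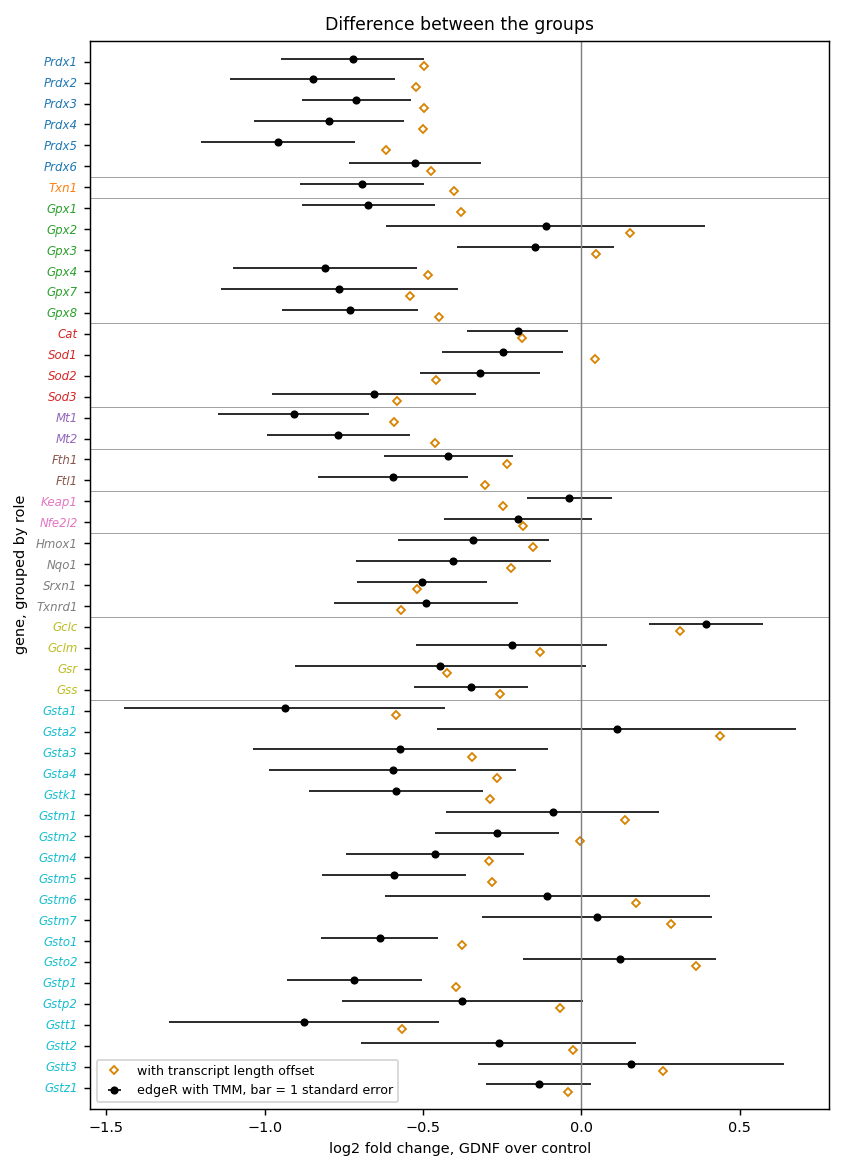
Log2 fold change, GDNF over control, of the 50 tested genes grouped by role. Black points are edgeR values with bars of 1 standard error, and orange diamonds are the values with an offset for transcript length. Of the 50, 45 black points and 40 diamonds lie below 0.

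The glutathione *S*-transferases, which join glutathione to electrophiles, were the largest family and a mixed one. Of 21 genes, 19 were tested, and 15 had negative fold changes, or 11 with library size alone. At an unadjusted p under 0.05, 3 of the 19 were lower. That share was near the 12.9% of all genes and below the 28.2% of genes with a transcript of up to 1500 bases. *Gstp1*, the pi class enzyme, was at 270.5, 133, 179.5 and 172 CPM in the controls and at 134, 99.3, 116 and 110.1 CPM after GDNF, with culture 6 just above the lowest control (log2 fold change -0.72 ± 0.21, edgeR adjusted p = 0.167). *Gsto1*, the omega class enzyme, was at 242, 153, 204 and 177 CPM against 122, 107, 157 and 113 CPM (log2 fold change -0.64 ± 0.18, edgeR adjusted p = 0.167). *Gstm5* was at 54.1, 29.3, 39.9 and 27.0 CPM against 29.0, 22, 26.7 and 21.9 CPM (log2 fold change -0.59 ± 0.23, edgeR adjusted p = 0.187), and shares 178 bases of exon with *4933431E20Rik*. Within the alpha class, *Gsta3* was at 147 CPM in control culture 3 and 79.5 CPM in GDNF culture 6, and between 30.6 and 59.8 CPM in the rest, while *Gsta1*, at 0.249 to 1.26 CPM, had a log2 fold change of -0.94 ± 0.51 (edgeR adjusted p = 0.295). Reads of the closely related alpha genes *Gsta1*, *Gsta2* and *Gsta3*, of the mu genes on chromosome 3, and of *Gstp1* and *Gstp2* may be split between copies, and single values in these families are uncertain for that reason.

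Within the cultures with *Xist*, the GDNF mean was below the control mean for 46 of the 50 genes, against 47.0% of all genes, and within those with Y-linked RNA for 46 of 50, against 49.4%, with 2 cultures per group in each kind. Across the 50 genes, 3 had all 4 *Xist* cultures above all 4 Y cultures, namely *Gsta2*, *Gstt2* and *Gstt3*, against 3.31% of all genes. These 3 genes were selected after their values were seen. *Gstt2* spanned 37.3 to 76.3 CPM in the first kind and 16.97 to 32.3 CPM in the second, and *Gstt3* 18.9 to 37.7 CPM and 7.77 to 18.3 CPM.

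Transcript length moved with the difference between the groups. The main transcripts of the 50 genes had a median length of 1299.5 bases, against 2674 bases for all genes tested. Among all genes the median log2 fold change went from -0.31 at up to 1000 bases to 0.29 above 4000 bases, and the share lower at an unadjusted p under 0.05 from 28.9% to 2.50%. For the 30 of the 50 genes with a transcript of up to 1500 bases, the median was -0.66, against -0.32 for all 3608 genes of that length, and 15 of 30 (50%) were lower at an unadjusted p under 0.05, against 28.2%. With an offset for length fitted in each culture, 14 of 50 (28%) were lower at that p, against 12% of all genes, and the median was -0.29, against -0.03. The 6 peroxiredoxins, *Txn1*, *Mt1*, *Gpx1*, *Gpx4*, *Gstp1*, *Gsto1* and *Srxn1* were 13 of those 14, and *Sod2* was the other, with a log2 fold change of -0.46, while *Mt2*, *Gpx8*, *Gstm5* and *Ftl1* were no longer past it. Of the 7 genes with a main transcript over 2500 bases, 6 lay below the median of their length class, and *Gclc*, of 3427 bases, lay above it.

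**Figure D4:**
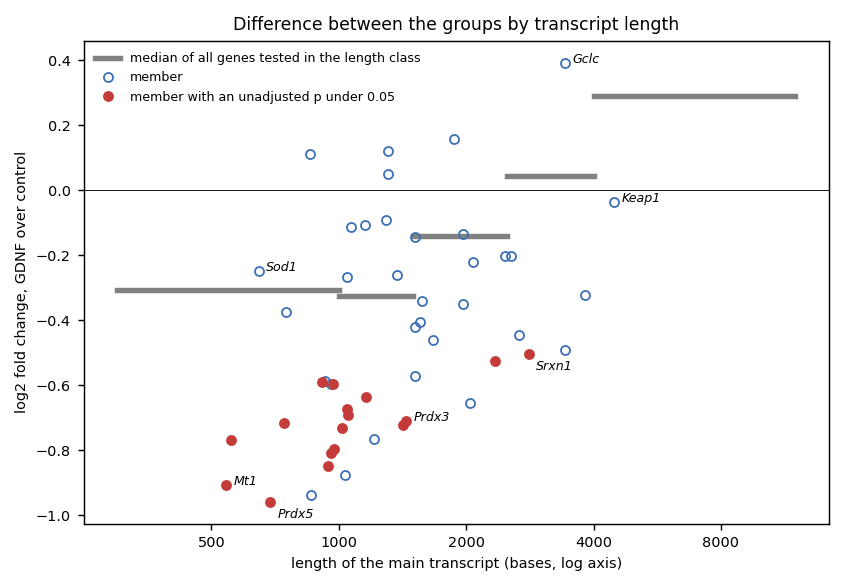
Log2 fold change, GDNF over control, against the length of the main transcript (log axis, bases) for the 50 tested genes, filled red where the unadjusted p is under 0.05. Grey lines are the median of all genes tested in 5 length classes, of which the outer ones are drawn to the edge of the plot. Red points lie below the grey line of their class, which goes from -0.31 for the shortest to 0.29 for the longest transcripts.

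Control culture 3 was the highest of the 8 cultures for 41 of the 50 genes. Without it, 13 of 50 (26%) were lower at an unadjusted p under 0.05, against 8.18% of all genes, and the median was -0.26, against 0.04. *Prdx5*, *Prdx3*, *Txn1* and *Mt1* were then still past that p, with log2 fold changes of -0.65, -0.55, -0.48 and -0.63. *Ftl1*, *Gstm5*, *Prdx6* and *Srxn1* were no longer past it, at -0.39, -0.36, -0.34 and -0.43. Scaling also moved all genes together. With library size alone the median of all genes was 0.25, and that of the 50 genes was -0.23, a difference of -0.48, against -0.51 with TMM. In the authors' TPM, which carries no such factor, the group mean was lower after GDNF for 21.2% of all genes tested, for 28 of the 50 and for 17 of the 17. The 17 were chosen as lower in the same counts, so their direction in TPM is no separate support.

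Other genes of the same pathways were taken from lists of 147 genes outside the set, of which 135 were tested, 38 were lower and 5 were higher at an unadjusted p under 0.05, with a median log2 fold change of -0.28. With the length offset these counts were 24 and 3, beside 12% of all genes lower, and with library size alone 16 and 16. The median of all genes was 0.25 with library size alone, against 0.03 in the main fit. The counts are therefore not compared between scalings. Glutathione turnover and use had 10 lower and 0 higher of 27 tested (median -0.44), or 7 and 0 with the length offset, where *Chac1*, *Chac2* and *Mgst3* did not pass. All 4 glutaredoxins, small proteins that use glutathione to reduce disulfides, were among the 10: *Glrx3* was at 278 ± 92.5 CPM in controls and 157 ± 22.3 CPM after GDNF, *Glrx5*, of mitochondrial iron-sulfur assembly, at 116 ± 32.7 and 69.6 ± 9.07 CPM, *Glrx* at 24.7 ± 7.32 and 14.6 ± 1.57 CPM, and *Glrx2* at 136 ± 22.9 and 106 ± 10.9 CPM (SD, n = 4 each). *Lap3*, *Chac1*, *Chac2*, *Glo1*, *Mgst3* and *Idh1* were the others.

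The thioredoxin system and protein repair list had 10 lower and 1 higher of 26 tested (median -0.44), or 4 and 0 with the length offset, where *Txnl1*, *Pon2*, *Pon3* and *Selenot* remained. *Txnl1*, a thioredoxin-like protein of the proteasome, was at 191 ± 42.4 CPM against 123 ± 14 CPM, and the paraoxonases *Pon2* and *Pon3* were at 63.3 ± 9.67 against 46.5 ± 2.78 CPM and at 20.1 ± 3.45 against 13.4 ± 1.10 CPM, each without overlap between the groups (SD, n = 4 each). The selenoprotein genes *Selenot*, *Selenok*, *Selenow* and *Selenos* were also lower, whereas *Selenop*, *Selenom* and *Msrb1*, at -0.84, -0.46 and -0.52, did not pass, and *Park7*, *Msrb2* and *Txn2* were the rest of the lower ones. *Secisbp2*, which is needed to place selenocysteine in selenoproteins, was the higher one (log2 fold change 0.39 ± 0.17, edgeR adjusted p = 0.220). *Txnip*, the inhibitor of thioredoxin, was at 269.8 ± 22.7 CPM against 316 ± 27.0 CPM and did not pass (edgeR adjusted p = 0.330).

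NRF2 targets outside the set had 9 lower and 1 higher of 25 tested (median -0.37), or 4 and 2 with the length offset, where *Esd*, *Blvra*, *Htatip2* and *Ugdh* remained lower, *Abcc3* remained higher and *Akr1b10*, an aldo-keto reductase, joined it. *Esd*, which hydrolyses *S*-formylglutathione, was at 1365 ± 393 CPM in controls and 772 ± 109 CPM after GDNF, and the biliverdin reductases *Blvra* and *Blvrb*, which act after heme oxygenase, at 39.1 ± 13.9 against 21.9 ± 2.79 CPM and at 56.4 ± 22.6 against 30.1 ± 7.59 CPM (SD, n = 4 each). *Htatip2*, *Ugdh*, *Ptgr1*, *Taldo1*, *Akr1b8* and *Cbr1* were the rest of the lower ones. *Abcc3*, an export pump for glutathione conjugates and glucuronides, was the higher gene and lay above all controls in every GDNF culture (16.7 ± 2.38 against 26.2 ± 3.08 CPM, log2 fold change 0.65 ± 0.16, edgeR adjusted p = 0.167). *Slc7a11*, the cystine importer that feeds glutathione synthesis, was at 3.87 ± 0.876 against 5.98 ± 2.18 CPM and did not pass (edgeR adjusted p = 0.25). Among 11 partners and regulators of NRF2 the median was -0.05, with *Rbx1*, a subunit of the ubiquitin ligase that KEAP1 recruits, lower (340 ± 97.3 against 199.8 ± 20.5 CPM) and *Mafg*, the small MAF partner of NRF2 on the ARE, higher (56.5 ± 9.65 against 82.3 ± 4.83 CPM, log2 fold change 0.54 ± 0.15, edgeR adjusted p = 0.167), both without overlap between the groups.

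Metal and iron handling had 6 lower and 2 higher of 35 tested (median -0.15). Besides *Mtf1*, the lower ones included *Tfrc*, the transferrin receptor, *Steap3*, an iron reductase of endosomes, *Hmox2*, the constitutive heme oxygenase, and *Atox1*, a copper chaperone, which was at 269.6 ± 83.7 CPM against 174 ± 19.3 CPM. The higher ones were *Cp*, ceruloplasmin, a copper ferroxidase, at 254 ± 93.9 against 391 ± 89.1 CPM, and *Atp7a*, a copper pump, at 47.6 ± 11.3 against 66.3 ± 4.88 CPM (SD, n = 4 each). Neither was past an unadjusted p of 0.05 with the length offset, where the log2 fold changes were 0.50 and 0.10. Oxidant sources had 2 lower and 0 higher of 11 tested: *Cyba*, the membrane subunit of NADPH oxidases, at 474 ± 205 against 246 ± 34.3 CPM, and *Romo1*, a small mitochondrial protein, at 789.9 ± 228 against 507 ± 58.6 CPM. None of the pathway genes passed the adjusted p by edgeR, while DESeq2 called some of them. The counts of the main fit stand beside the 12.9% lower and 9.25% higher of all genes given above. With the length offset, 12% of all genes were lower at an unadjusted p under 0.05. With library size alone, 4149 of the 16557 genes passed it in either direction, against 3665 in the main fit. Other shares of all genes under these settings are not given here.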

How the data were processed

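RNA-Seq of 8 tubuloid cultures was used, 4 GDNF and 4 control, with groups and culture numbers taken from the sample titles. The SMART-Seq v4 kit was used for the libraries, and the submitters' processing notes name STAR, featureCounts and DESeq2 with mm10 (GRCm38). Versions, strand setting and the counting of shared reads are not given in the sources used here. The authors deposited, for each RefSeq transcript, a raw count. The FPKM values deposited by the authors are those counts divided by length and library total, and were used only to recover transcript lengths. The TPM values deposited by the authors were used to compare levels between genes. A read that fits several transcripts of a gene is in the count of each. The summed CPM of a gene with several listed transcripts can be a multiple of its level, so CPM levels of different genes are not on one scale.

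The sum of counts per symbol entered edgeR's quasi-likelihood test (version 4.0.16, R 4.3.3) after filterByExpr and TMM, and p-values were adjusted by Benjamini-Hochberg over 16557 genes. CPM values use the TMM factors. The standard error is the absolute log2 fold change divided by the square root of the F statistic. Alternatives were DESeq2 1.42.0, limma-voom (limma 3.58.1), other scalings, filters and thresholds, one transcript per gene, a covariate for *Xist* or Y-linked RNA, a length offset (spline, 5 degrees of freedom per culture) and leaving out each culture. The background of genes of at most 1500 bases and the separate account without control culture 3 were added after seeing the data. On simulated counts with 200 genes changed, edgeR recovered 13.5% of 2-fold and 77.5% of 4-fold changes, and DESeq2 51.5% and 87.5%, with 33.1% of its calls unchanged genes at 2-fold.

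Genes are named by these rules: an unadjusted p under 0.05, the 10 highest mean TPM, the sensor and main effectors, no overlap between groups, a culture that stands apart, and pathway genes with an unadjusted p under 0.05. *Akr1b10*, *Gpx3*, *Gpx7*, *Gsta1*, *Gsta2*, *Gsta3*, *Gstt2*, *Gstt3*, *Msrb1*, *Selenom*, *Selenop*, *Slc30a1*, *Slc7a11* and *Txnip* fall outside them and were chosen after their values were seen. Members and lists were chosen with earlier results of these data known. Of the selenoprotein genes, some are listed under older symbols and were matched through RefSeq synonyms. A gene of the metal and iron list is counted but not reported here on its own.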

Additional observations from a re-analysis of the deposited data

Results flagged for a closer look

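Of 100 groups of 4 cultures (50 genes in each condition), 4 held a culture far from the others by Dixon's criterion, and chance gives about 5. *Txn1* was at 928 CPM in control culture 3 and at 558 to 584 CPM in the other controls. *Sod1* was at 50.0 CPM in control culture 3 and at 38.2 to 38.7 CPM in the others. *Sod3* was at 5.96 CPM in control culture 14 and at 3.60 to 3.82 CPM in the others. *Gpx2*, the epithelial glutathione peroxidase, was at 14.2 CPM in GDNF culture 6 and at 3.86 to 4.89 CPM in the other GDNF cultures.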

How the results depend on the processing

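Of 1350 alternative fold changes of the named genes over 18 settings, 1301 kept their direction and their side of the adjusted p of 0.05, 33 passed it anew and 16 changed sign. The 17 lower genes stayed lower in each of these settings, and the number still past an unadjusted p of 0.05 was lowest, 12, without GDNF culture 22. Since the main fit to the same counts picked the 17, their kept direction is no separate support. At an adjusted p of 0.05, DESeq2 called 13 genes, and every edgeR and limma-voom setting called 0. *Gclc* made the count of higher genes 1 in place of 0 with limma-voom, upper-quartile factors, library size only, the filter of 1 CPM and the *Xist* or Y covariate. For the pathway genes, the counts lower and higher, 38 and 5, became 16 and 16 with library size only, 24 and 3 with the length offset, and 12 and 2 at a p of 0.01. Shares of all genes in each direction are not given for all of these settings, so the changed counts are a description only. With each culture left out in turn, lower genes numbered 12 to 23, higher genes 0 to 1, genes past the adjusted p 0 to 0, the median was -0.60 to -0.26, and the pathway counts were 19 to 43 lower and 2 to 6 higher. In the same fits, 2192 to 4104 of all genes tested were past an unadjusted p of 0.05 in either direction. Sign changes, all in genes with an unadjusted p over 0.05, were, with library size only, *Cat* 0.033, *Gclm* 0.031, *Gpx2* 0.15, *Keap1* 0.19 and *Nfe2l2* 0.033, with the length offset *Gpx2* 0.16 and *Sod1* 0.044, and for *Keap1* 0.033 with limma-voom and 0.0092 with one transcript per gene. With cultures left out in turn, *Gclm* ran from -0.42 to 0.035, *Gpx2* from -0.77 to 0.27 and *Keap1* from -0.12 to 0.013. The causes were not tested. No paired analysis was run, because the groups share no culture numbers and the labels name no animal by which to match cultures. In number order, control cultures 3, 7, 14 and 21 and GDNF cultures 6, 12, 17 and 22 had the same kind by *Xist* or Y-linked RNA. Stroma markers were highest in control culture 14 and GDNF culture 17. Whether cultures were matched is not known, and if they were, the unpaired tests leave that out.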
